A study of Canis lupus familiaris with 6 samples.

Results

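Fibronectin and 9 other secreted matrix glycoproteins were followed in CMM12 and CMM2, a pair of canine melanoma cell lines whose podoplanin gene had been knocked out. The genes were FN1, FBLN1, TNC, TNN, SPON1, NPNT, LUM, OGN, OMD and OLFML2B. They were picked by symbol, with their differences between libraries already known, so the values below are a description of them, and their tests support no claim about them. All 10 were found among 30951 listed genes, each as 1 row, and all 10 were among the 12270 genes with enough counts to be fitted. For TNN, OGN and OMD this was owed to the CMM12 control library, so these genes had to differ there. NPNT and LUM had enough counts to be fitted without that library too. The groups were CMM12 podoplanin KO (2 libraries, KO 1 and KO 2), CMM12 control (1 library, genotype WT), CMM2 podoplanin KO (2 libraries) and CMM2 control (1 library, genotype WT). No label says whether a KO line is a single clone, how the knockout was made, or whether libraries came from separate cultures. The spread between libraries may therefore be technical or clonal. No control had a replicate.

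The extracellular matrix is built from collagens and from glycoproteins that connect the fibres with each other and with the cell. Fibronectin is assembled by integrins into fibrils at the cell surface, and other glycoproteins such as fibulin-1 and tenascin-C bind it. Tumour cells that move through tissue, melanoma cells among them, are known in human and mouse to secrete their own fibronectin and tenascin-C. Podoplanin, the deleted protein, is a mucin-like membrane glycoprotein linked to the actin cortex through ezrin-family proteins.

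The libraries held 9732927 to 11807835 estimated counts each. PDPN itself, the podoplanin gene, stood at 16 and 10.8 TPM in the CMM12 KO libraries, against 94.3 TPM in the CMM12 control. It stood at 5.71 and 5.96 TPM in the CMM2 KO libraries, against 19.1 TPM in the CMM2 control, so PDPN was lower in all 4 KO libraries. TPM, the share of all transcripts, is scaled for transcript length and allows levels of different genes to be set side by side. The markers of the pigment cell lineage were mostly missing. DCT was at 0 in every library, and SOX10, MLANA, S100B, TYR and EDNRB reached at most 0.21 TPM. MITF, a lineage transcription factor, stood at 10.7 to 21.7 TPM, and PMEL at 0.41 to 1.82 TPM. TYRP1 had 2.22 and 3.45 TPM in the CMM12 KO libraries and 2.09 TPM in the CMM12 control, against 0 in every CMM2 library. Epithelial, endothelial and immune marker lists summed to at most 2.02, 2.42 and 3.46 TPM in any library. Of the 6 epithelial markers 3 were among the listed genes (EPCAM, CDH1 and KRT18), so that sum does not cover KRT5, KRT8 and KRT19. Fibroblast markers, which melanoma cells can also express, summed to 216 and 496 TPM in the CMM12 KO libraries and 824 TPM in the CMM12 control. In CMM2 they summed to 573 and 1805 TPM in the KO libraries and 305 TPM in the control. COL1A1 and COL3A1 carried most of these sums in all but the CMM12 KO libraries, where THY1 gave 131 and 313 TPM, while TCF21 was at 0 in every library. In bulk RNA, fewer cells of a type and less RNA per cell cannot be told apart. Among the 8659 genes averaging at least 10 CPM, 6.03% differed at least 2-fold between CMM2 KO 2 and the CMM2 control, against 0.751% between CMM2 KO 1 and that control. In CMM12 the shares were 4.23% for KO 1 and 4.34% for KO 2 against their control. CMM2 KO 1 was thus the KO library closest to its control, and CMM2 KO 2 the one furthest from it. CPM are counts scaled to the library size.

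FN1 gave most of the transcripts of the set. It made up 86.4% and 86.5% of the summed TPM of the 10 genes in the CMM12 KO libraries and 65.4% in the CMM12 control. In CMM2 its share was 92.0% and 84.0% in the KO libraries and 94.6% in the control. By mean TPM over the 6 libraries FN1 (329 TPM) was followed by OLFML2B (38.1 TPM), FBLN1 (11.9 TPM), TNC (3.61 TPM) and SPON1 (2.91 TPM). NPNT (2.26 TPM), LUM (1.94 TPM), OGN (1.3 TPM), TNN (1.15 TPM) and OMD (0.458 TPM) came last. The order below FN1 changed from library to library. FBLN1 stood above OLFML2B in the CMM2 control (6.26 against 3.2 TPM) and in CMM2 KO 1 (12.21 against 10.98 TPM). It stood below OLFML2B in CMM2 KO 2 and in every CMM12 library. Several of the other genes were read in few libraries. TNN, OGN and OMD had no count in 4 of the 6 libraries, NPNT in 3, TNC and LUM in 2 and SPON1 in 1.

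**Figure D1:**
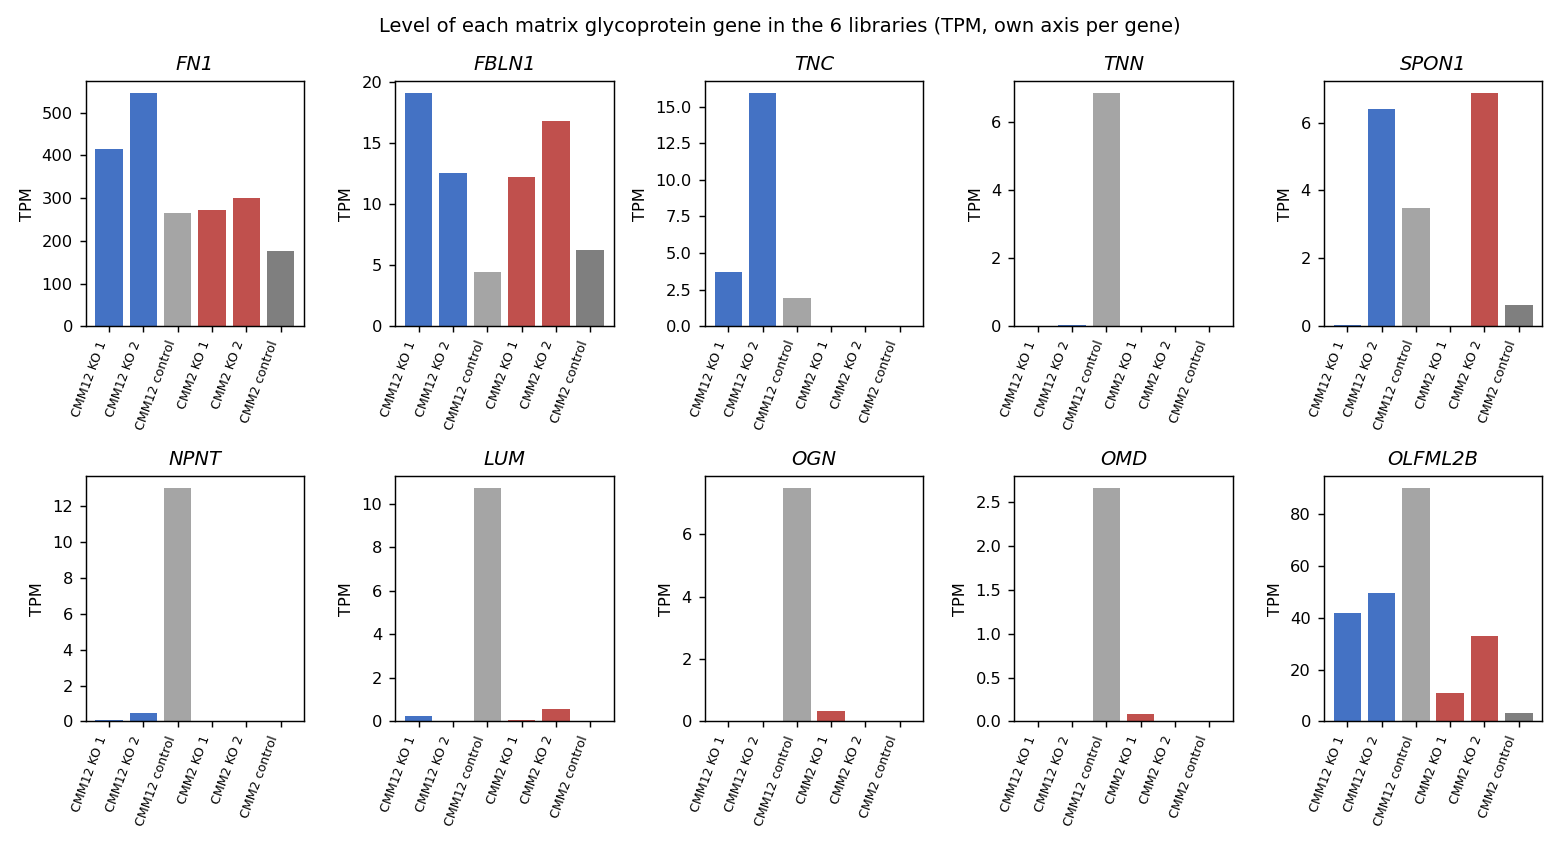
Bars give the level in TPM of each of the 10 genes in each library, with a separate linear axis per gene (blue, CMM12 KO; red, CMM2 KO; grey, controls). FN1 and FBLN1 stood above the own control in all 4 KO libraries, and TNN, NPNT, LUM, OGN and OMD were high in the CMM12 control alone, at 2.66 to 13 TPM.

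FN1 and FBLN1 were the members whose level in all 4 KO libraries exceeded that of the own control. FN1, the gene of fibronectin, had 414 and 546 TPM in the CMM12 KO libraries, against 266 TPM in the CMM12 control. The CMM2 KO libraries had 272 and 299 TPM of FN1, against 177 TPM in the CMM2 control. Within each line the KO libraries lay above the control without overlap, and the CMM12 control lay at about the level of the CMM2 KO libraries. FN1 ranked 361 and 271 among all listed genes by TPM in the CMM12 KO libraries and 605 in the CMM12 control. It ranked 574 and 513 in the CMM2 KO libraries and 893 in the CMM2 control.

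Set against its control, FN1 in CPM was 1.70 times as high in CMM12 KO 1 (95% counting interval 1.67 to 1.73) and 2.03 times as high in CMM12 KO 2 (1.99 to 2.06). It was 1.51 times as high in CMM2 KO 1 (1.48 to 1.54) and 1.64 times as high in CMM2 KO 2 (1.61 to 1.67). These intervals cover counting error only, and with 14890 to 38656 counts per library they are far narrower than the distance between KO lines. Of all tested genes, 77 (0.628%) stood at 1.5 times the own control or more in all 4 KO libraries, and 1292 (10.5%) stood above the own control in all 4. Since the KO contrast was known when FN1 and FBLN1 were picked, nothing is read from these shares.

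FBLN1 encodes fibulin-1, a calcium-binding glycoprotein of basement membranes and elastic fibres that binds fibronectin. It had 19.1 and 12.5 TPM in the CMM12 KO libraries, against 4.46 TPM in the CMM12 control. The CMM2 KO libraries had 12.2 and 16.8 TPM, against 6.26 TPM in their control. The groups did not overlap in either line, and KO 1 was the higher KO library in CMM12 while KO 2 was the higher one in CMM2. Against the control, FBLN1 in CPM stood at 4.64 times (counting interval 3.65 to 5.96) in CMM12 KO 1 and 2.75 times (2.13 to 3.60) in CMM12 KO 2. It stood at 1.97 times (1.58 to 2.46) in CMM2 KO 1 and 2.67 times (2.16 to 3.32) in CMM2 KO 2.

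In a model of line and genotype fitted to all genes, the log2 fold change of KO over control was 0.77 (SE 0.17) for FN1 and 1.53 (SE 0.33) for FBLN1. By edgeR's quasi-likelihood test with Benjamini-Hochberg adjustment over all genes the adjusted p was 0.987 for both, and 0 of 12270 genes were called (0%, with 495 at an unadjusted p under 0.05). DESeq2 called 9 genes (0.0733%), FN1 with an adjusted p of 0.00369 and FBLN1 with 0.0378 among them. PDPN, the targeted gene, had a log2 fold change of −2.365 (SE 0.28) across lines. DESeq2 called PDPN across lines (adjusted p 4.21e-08) and in CMM12 (9.79e-06). The edgeR test missed it in both (adjusted p 0.288 and 0.307), and neither tool called it in CMM2. A missing edgeR call is therefore no sign that a gene was unchanged. Taken by line, the log2 fold change of FN1 was 0.90 (SE 0.26) in CMM12 and 0.65 (SE 0.26) in CMM2. That of FBLN1 was 1.89 (SE 0.47) in CMM12 and 1.21 (SE 0.45) in CMM2. In CMM12 edgeR called 1 gene (0.00815%), IGF2BP1, which is no member and was named after its value was seen, and DESeq2 called 45 (0.406%), of which FN1 was a member with an adjusted p of 0.0453. The effect in CMM12 minus that in CMM2 was 0.24 (SE 0.36) on the log2 scale for FN1 and 0.67 (SE 0.61) for FBLN1. With these errors a difference between the lines was not detectable for either gene, which does not show that the lines responded alike.

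**Figure D2:**
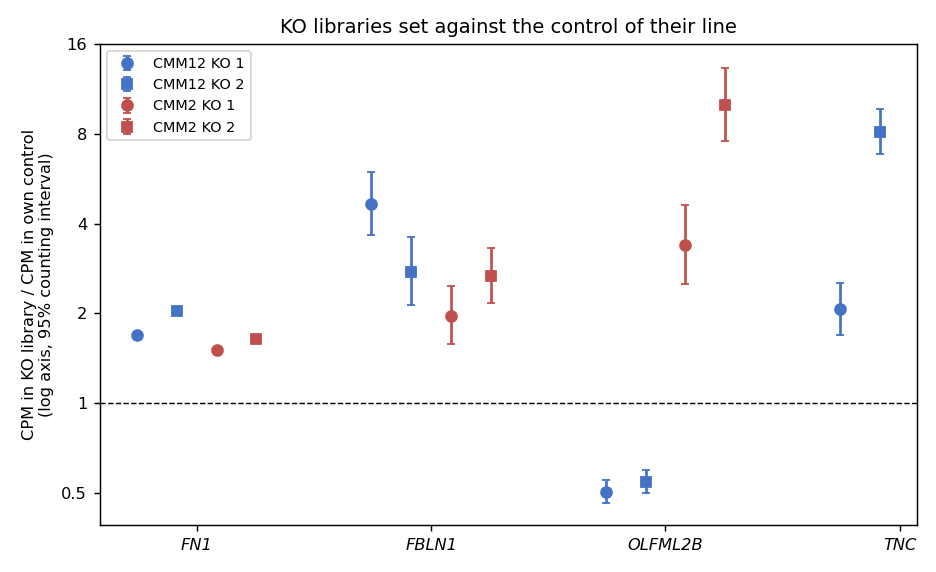
Points give CPM in each KO library over CPM in the control of its line on a log axis, with 95% counting intervals as bars (blue, CMM12; red, CMM2; circles, KO 1; squares, KO 2). FN1 lay between 1.51 and 2.03 and FBLN1 between 1.97 and 4.64, while OLFML2B lay above 1 in CMM2 and below 1 in CMM12, and TNC is drawn for CMM12 alone.

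OLFML2B, which encodes an olfactomedin-domain protein of the extracellular space, lay on opposite sides of the control in the lines. It had 41.8 and 49.5 TPM in the CMM12 KO libraries, against 90.0 TPM in the CMM12 control, which is 50.5% and 54.5% of the control in CPM. In CMM2 it had 11 and 32.8 TPM in the KO libraries, against 3.20 TPM in the control, which is 3.39 and 9.98 times the control in CPM. The highest CMM2 value was that of KO 2, the KO library furthest from its control, and every CMM12 library lay above every CMM2 library. The log2 fold change was −0.93 (SE 0.54) in CMM12 and 2.74 (SE 0.68) in CMM2. The effect in CMM12 minus that in CMM2 was −3.67 (SE 0.86). DESeq2 called OLFML2B in CMM2 (adjusted p 0.0147), among 6 genes (0.0489%), and for the difference between lines (adjusted p 0.0118), among 22 genes (0.179%). In these 2 comparisons edgeR called 0 genes, with 233 at an unadjusted p under 0.05 in CMM2 and 471 for the difference. Of all tested genes, 1252 (10.2%) lay above the control in both CMM2 KO libraries and below it in both CMM12 KO libraries, LUM among them.

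The tenascin genes of the set, TNC and TNN, differed from each other. TNC encodes tenascin-C, a large hexameric glycoprotein of wounds and tumour stroma that loosens the attachment of cells to fibronectin. It had 3.73 and 15.9 TPM in the CMM12 KO libraries, against 1.95 TPM in the CMM12 control. CMM2 had 1 count of TNC in KO 1 and none in KO 2 or the control. TNC was thus read in CMM12 almost alone, and its highest level was in CMM12 KO 2. Against the CMM12 control its CPM was 2.06 times as high (counting interval 1.69 to 2.53) in KO 1 and 8.09 times as high (6.82 to 9.65) in KO 2. The fitted log2 fold change in CMM12 was 2.34 (SE 0.84, edgeR adjusted p 0.797, DESeq2 adjusted p 0.279). TNN encodes tenascin-N, also called tenascin-W, which in the mouse is made around developing bone and in tumour stroma. It had 305 counts, or 6.85 TPM, in the CMM12 control, against 0 counts in CMM12 KO 1 and 2 counts in CMM12 KO 2. No CMM2 library had a count of TNN.

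TNN shared its pattern with NPNT, LUM, OGN and OMD, which were likewise high in the CMM12 control and at or near 0 elsewhere. All 5 stood at 10% of the CMM12 control or less in both CMM12 KO libraries and in every CMM2 library, as did 49 of all tested genes (0.399%). Their differences were known when these genes were picked, and TNN, OGN and OMD were fitted only because of that control. Nothing is therefore read from this share. Over both CMM12 KO libraries TNN was 279-fold lower than in the control, with a counting interval of 76.5 to 2312 that rests on 2 counts. NPNT encodes nephronectin, an RGD-containing ligand of integrin alpha-8 that takes part in kidney development in the mouse. It had 3 counts in CMM12 KO 1 and 19 in CMM12 KO 2, against 573 counts (13 TPM) in the CMM12 control, and none in CMM2. That put NPNT 181-fold lower in KO 1 (counting interval 61.5 to 879) and 26.6-fold lower in KO 2 (16.9 to 44.5). ITGA8, the alpha chain of the nephronectin receptor, was listed at 0 TPM in all 6 libraries.

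LUM, OGN and OMD encode lumican, osteoglycin (mimecan) and osteomodulin, small leucine-rich proteoglycans that bind collagen fibrils. LUM had 5 counts in CMM12 KO 1 and 0 in CMM12 KO 2, against 196 counts (10.7 TPM) in the CMM12 control. It was 37.1-fold lower in KO 1 (counting interval 15.6 to 116) and at least 57.6-fold lower in KO 2, where a floor of 3 counts per library stands for 0. In CMM2 LUM had 1 and 11 counts in KO 1 and KO 2, against 0 in the control. OGN had 0 counts in both CMM12 KO libraries, against 62 counts (7.49 TPM) in the CMM12 control, and was at least 19.5-fold and 18.2-fold lower. OMD had 0 counts in both, against 27 counts (2.66 TPM), and was at least 8.52-fold and 7.94-fold lower. In CMM2, OGN had 3 counts and OMD 1 count, both in KO 1, and neither had any in KO 2 or the control. The fitted log2 fold changes of KO over control in CMM12 were −7.95 (SE 1.01) for TNN, −5.5 (SE 0.89) for NPNT and −6.11 (SE 1.38) for LUM. They were −8.87 (SE 1.92) for OGN and −7.67 (SE 2.05) for OMD. Neither the main edgeR fit nor DESeq2 called any of these 5 genes there, and DESeq2 gave OGN and OMD no adjusted p. Each of the differences in these 5 genes rests on 1 unreplicated library, the CMM12 control. The fibroblast marker sum of the CMM12 KO libraries was 216 and 496 TPM, against 824 TPM in that control. The higher sum of the control came from COL3A1 (61.6 and 139 TPM in KO, against 517 TPM) and COL1A1 (1.33 and 19.3 TPM in KO, against 177 TPM). THY1 (131 and 313 TPM in KO, against 115 TPM), PDGFRA (11.5 and 20.8 TPM, against 10.2 TPM) and PDGFRB (1.75 and 3.39 TPM, against 1 TPM) were lower in the CMM12 control. DCN and FAP lay on either side of the control in the KO libraries, and the part of these markers in the result was not tested.

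OGN and OMD are neighbours in the dog genome, and LUM lies beside other genes of its family. In the RefSeq gene order of the assembly UU_Cfam_GSD_1.0, which held all 10 symbols, ECM2, ASPN, OMD and OGN follow each other on chromosome 1. ECM2, which encodes a leucine-rich matrix protein, had 0.16 and 0.27 TPM in the CMM12 KO libraries, against 1.54 TPM in the CMM12 control and at most 0.12 TPM in CMM2. ASPN, the asporin gene, had 2 counts in the CMM12 control and none elsewhere, which is under the floor of 3 counts. ECM2, OMD and OGN were thus highest in the CMM12 control. NOL8 on the other side of OGN had 31.4 and 35.1 TPM in the CMM12 KO libraries, 42.3 TPM in the control and 32.39 to 46.83 TPM in CMM2. The order is by gene start, and overlap between these genes was not examined. CENPP, which starts before ECM2 in that order, was also highest in the CMM12 control, at 134.64 TPM. It had 87.02 and 99.08 TPM in the CMM12 KO libraries and 92.61 to 96.45 TPM in CMM2. On chromosome 15, EPYC, KERA, LUM and DCN follow each other. DCN, the decorin gene, had 8.98 TPM in CMM12 KO 1 and 0 in CMM12 KO 2, against 4.36 TPM in the control, so DCN did not share the order of LUM.

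**Figure D3:**
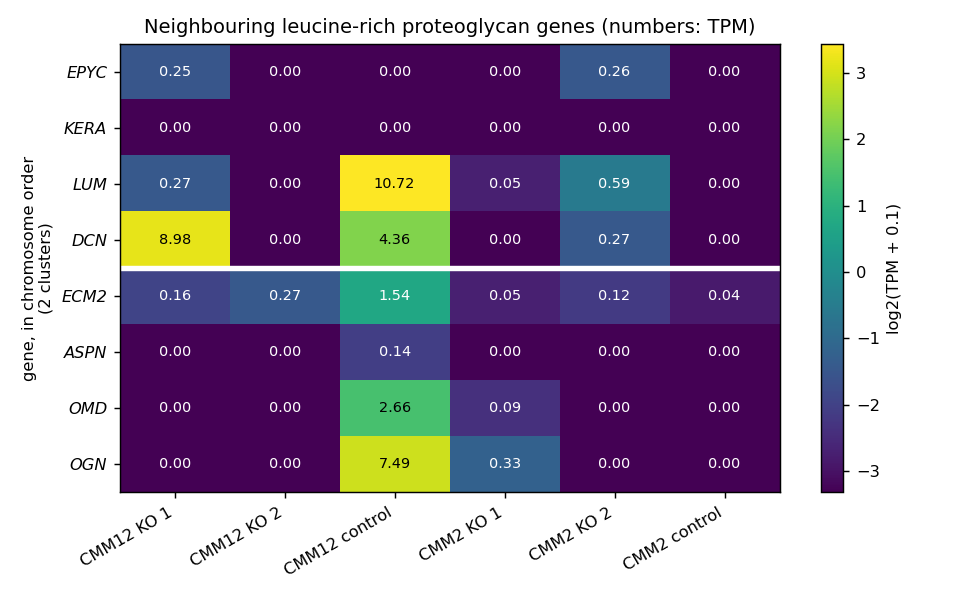
Each cell gives the TPM of a gene (rows, in chromosome order, with the LUM cluster above and the OGN cluster below the white line) in a library (columns), coloured by log2(TPM + 0.1). ECM2, OMD and OGN were highest in the CMM12 control, at 1.54 to 7.49 TPM, and DCN was highest in CMM12 KO 1, at 8.98 TPM.

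SPON1 encodes F-spondin, a matrix protein first known from the floor plate of the spinal cord, where it guides axons in vertebrate embryos. Its levels differed more between the KO lines than between KO and control. In CMM12 it had 1 count in KO 1 and 135 counts (6.4 TPM) in KO 2, against 84 counts (3.48 TPM) in the control. In CMM2 it had 0 counts in KO 1 and 168 counts (6.88 TPM) in KO 2, against 16 counts (0.64 TPM) in the control. In both lines KO 1 was thus far below the control and KO 2 above it, and the KO 2 libraries had nearly the same TPM. In CPM, CMM12 KO 1 was 79.5-fold below its control (counting interval 13.9 to 3176) and CMM12 KO 2 was 1.82 times as high (1.38 to 2.42). CMM2 KO 1 was at least 5.83-fold below its control and CMM2 KO 2 was 10.4 times as high (6.22 to 18.6). Of all tested genes, 61 (0.497%) had KO 2 at 5 times KO 1 or more in both lines, a rule chosen after the values of SPON1 were seen. No label says whether KO 1 of CMM12 and KO 1 of CMM2 were made in the same way, for example with the same guide. The log2 fold change of KO over control was −0.13 (SE 2.39) in CMM12 and 2.37 (SE 2.81) in CMM2, with the errors set by the distance between KO 1 and KO 2.

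Between the lines, with the genotype in the model, edgeR called 4 of the 10 genes, all higher in CMM12, where it called 14.6% of all tested genes as higher (25.8% in either direction). FN1 averaged 409 ± 140 TPM in CMM12 and 249 ± 64.1 TPM in CMM2 (SD over 3 libraries of each line, KO and control together). Its log2 fold change of CMM12 over CMM2 was 0.55 (SE 0.16, edgeR adjusted p 0.0375). TNC stood at 10.19 (SE 0.93, edgeR adjusted p 0.000922), TNN at 9.41 (SE 1.45, 0.00966) and NPNT at 10.42 (SE 1.46, 0.00761). Since CMM2 had at most 1 count of these 3 genes in any library, the fitted sizes depend on the small count that edgeR adds to every value. The calls of TNN and NPNT rest on the CMM12 control: without that library TNC was the remaining member with a call, and FN1 had a log2 fold change of 0.64 and an edgeR adjusted p of 0.0852. FN1 lost its call when any of the 6 libraries was left out, with 0.46 to 0.64 on the log2 scale and edgeR adjusted p-values of 0.057 to 0.152. Without the CMM2 control TNC was likewise the remaining member with a call. DESeq2 called FN1, TNC and NPNT, against 32.2% of all tested genes. TNC, NPNT and OLFML2B had every CMM12 library above every CMM2 library, as did 24.6% of all tested genes. OLFML2B, at 1.99 (SE 0.77, edgeR adjusted p 0.0983), and FBLN1, at −0.21 (SE 0.29, 0.623), were not called, nor were SPON1, LUM, OGN and OMD. Under 3 of 16 alternatives OLFML2B was called higher in CMM12.

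The patterns of the members were compared by correlation of log2 CPM centred within each line, over 6 libraries that all genes share, so that a single library can decide a value. FN1 and FBLN1 had r = 0.877. TNN, NPNT, LUM, OGN and OMD had r between 0.918 and 0.998 with each other, set by the CMM12 control. Among 8019 other genes with a symbol and a mean of at least 10 CPM, those most like FN1 were KDM5B (r = 0.997), ALDOC (0.995), FAM214B (0.993), EDF1 (0.993) and ALG12 (0.991). KDM5B, a histone demethylase, had 23.3 and 28.8 TPM in the CMM12 KO libraries, against 15.3 TPM in the control. Its levels were 10.1 and 11.5 TPM in the CMM2 KO libraries, against 6.78 TPM in the control. Among those most like FBLN1 were SHARPIN (0.993), SLC1A4 (0.991), SAMD9L (0.988) and ETV1 (0.988). ETV1, a transcription factor of the ETS family, had 72.4 and 50.0 TPM in the CMM12 KO libraries, against 27.8 TPM in the control. For CMM2 the values were 58.9 and 70.7 TPM in the KO libraries, against 42.3 TPM in the control.

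Other matrix genes were taken from lists of receptors, family relatives, small leucine-rich proteoglycans, basement membrane, elastic fibre and matricellular glycoproteins. Of 109 such genes in the files, 73 were tested. Across lines 46 were higher and 27 lower in KO by edgeR's log2 fold change, none of them by a call. In CMM12 35 were higher and 38 lower. In CMM2 51 were higher and 12 lower, with the other 10 at a fold change of 0. Some of the 51, such as LAMC3 and MMRN2, were higher by 1 count in CMM2 KO 2 against 0 in the control. By library, CMM12 KO 1 had 26 of the 73 above the control and CMM12 KO 2 had 41, against 50.3% and 50.7% of all tested genes. In CMM2 KO 1 41 lay above and 14 below the control, and in CMM2 KO 2 47 lay above and 16 below, against 48.5% and 47.5% of all tested genes above. Both CMM2 KO libraries were set against the same single control, and 28 of the 73 (38.4%) lay above it in both, against 30.1% of all tested genes. With zeros raised to the 3-count floor and genes at the floor throughout left out, the median log2 ratio of the mean KO CPM to the control CPM was −0.04 over 73 genes in CMM12 and 0.51 over 54 genes in CMM2. All tested genes had 0.02 in CMM12 and 0.02 in CMM2. The same median was −0.19 in CMM12 and 0.16 in CMM2 for the receptors, and −1.42 and 0.27 for the relatives, in the same order of lines. Small leucine-rich proteoglycans had 0.18 in CMM12 and 0.83 in CMM2, and basement membrane genes 0.00 and 0.22. Elastic fibre genes had 0.74 in CMM12 and 0.88 in CMM2, and matricellular genes −0.20 and 0.57.

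edgeR called none of the 73 in any KO comparison. DESeq2 called 1, FBN1, which encodes the microfibril protein fibrillin-1. FBN1 had 25.8 and 37.8 TPM in the CMM12 KO libraries, against 82.2 TPM in the CMM12 control. FBN1 in CMM2 had 94.3 and 147 TPM in the KO libraries, against 52.0 TPM in the control. Its log2 fold change was −1.32 (SE 0.33, DESeq2 adjusted p 0.0286) in CMM12 and 1.18 (SE 0.36, 0.438) in CMM2. The effects differed by −2.50 (SE 0.49, DESeq2 adjusted p 0.000438, edgeR adjusted p 1). FBN1 therefore lay on opposite sides of the control in the lines, as OLFML2B did.

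**Figure D4:**
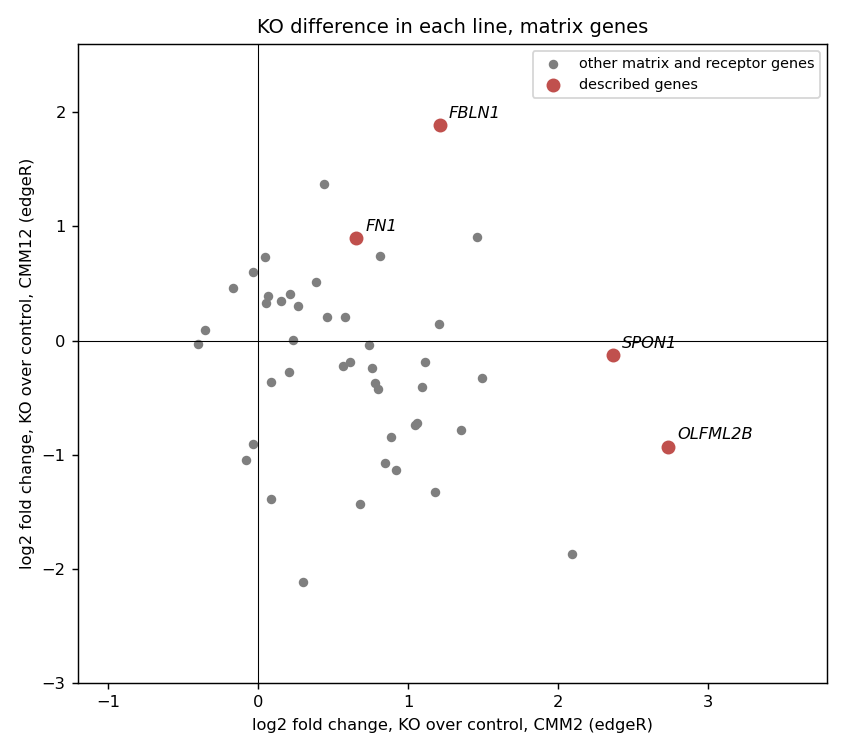
Each point is a gene, with the edgeR log2 fold change of KO over control in CMM2 on the horizontal and in CMM12 on the vertical axis (red, FN1, FBLN1, OLFML2B and SPON1; grey, 42 genes of the other lists with a mean of at least 1 TPM in both lines and counts in both controls). Of the grey points 14 were higher in KO in both lines, 22 higher in CMM2 and lower in CMM12, 3 the other way round and 3 lower in both.

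Of 10365 tested genes that met the conditions of that plot, 25.9% were higher in both lines, 24.9% higher in CMM2 and lower in CMM12, 25.3% the other way round and 23.9% lower in both. SPARC, a collagen-binding matricellular protein and the most abundant gene of its list, had 174 TPM in CMM2 KO 1 and 634 TPM in CMM2 KO 2, against 152 TPM in the CMM2 control. In CMM12 it had 243 and 309 TPM in the KO libraries, against 495 TPM in the control. Among the receptors, ITGB1, the beta chain shared by the main fibronectin receptors, had 492 and 487 TPM in the CMM12 KO libraries, against 400 TPM in the control. In CMM2 it had 631 and 763 TPM in the KO libraries, against 613 TPM in the control. SDC4, a heparan sulphate co-receptor for fibronectin, had 313 and 289 TPM in the CMM12 KO libraries, against 250 TPM in the control. In CMM2 it had 168 and 200 TPM in the KO libraries, against 176 TPM in the control. Neither receptor gene was called in a KO comparison by either tool.

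BGN, the biglycan gene, was the most abundant of the small leucine-rich proteoglycans. It had 1147 and 1250 TPM in the CMM12 KO libraries, against 1125 TPM in the control, and 684 and 1229 TPM in the CMM2 KO libraries, against 406 TPM in the control. TSKU, the tsukushi gene, was second in that list at 6.52 to 18.1 TPM. LAMB1 and LAMC1, chains of the laminins, led the basement membrane list with ranges of 106 to 143 TPM and 19.0 to 96.0 TPM over the 6 libraries. LTBP1, which stores latent TGF-beta in the matrix, was second to FBN1 among elastic fibre genes at 36.4 to 112 TPM. MFGE8, an integrin-binding glycoprotein of milk fat globules, followed SPARC at 157 to 687 TPM. Among the relatives of the members, OLFML3 of the olfactomedin family stood at 0.53 to 37.3 TPM and FBLN2, the gene of fibulin-2, at 0.56 to 31.3 TPM.

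Between the lines edgeR called 22 of the 73 genes (30.1%, against 25.8% of all tested genes), 18 higher and 4 lower in CMM12. CTHRC1, a secreted protein of injured vessel walls, had 35.3 and 51.5 TPM in the CMM12 KO libraries and 162 TPM in the CMM12 control, and was listed at 0 in every CMM2 library (adjusted p 0.000634). THBS1, the thrombospondin-1 gene, stood 1.89 higher on the log2 scale in CMM12 (SE 0.19, adjusted p 0.00115) and IGFBP7 2.03 higher (SE 0.21, 0.0015). Of the basement membrane genes NID1, the nidogen-1 gene, had 9.44 and 13 TPM in the CMM12 KO libraries and 18.2 TPM in the CMM12 control, against at most 0.05 TPM in CMM2 (adjusted p 0.000286). LAMC3, a laminin chain gene, had 20 and 36 counts in the CMM12 KO libraries and 3 in the CMM12 control, against at most 1 count in CMM2 (adjusted p 0.0119). LAMC1 was lower in CMM12, at −1.64 (SE 0.26, 0.00508).

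Relatives of the members that were higher in CMM12 than in CMM2 were the fibulin family genes EFEMP1 (edgeR adjusted p 0.0121) and FBLN5 (0.011) and the olfactomedin gene OLFM1 (0.00618), all 3 listed at 0 TPM in every CMM2 library. EFEMP1 had 0.29 and 3.53 TPM in the CMM12 KO libraries, against 22.6 TPM in the CMM12 control. FBLN5, the gene of fibulin-5, had 1.17 and 4.71 TPM, against 3.92 TPM. The proteoglycan genes PODN and DCN were called higher in CMM12 (adjusted p 0.0205 and 0.0497). So were the integrin beta chain gene ITGB8 at 3.02 (SE 0.83, 0.0351), LTBP3 at 0.73 (SE 0.21, 0.0415) and the vessel glycoprotein gene MMRN2 (0.0267), which had 6 and 74 counts in the CMM12 KO libraries and 3 in the control, against at most 1 in CMM2. ITGB1 was lower in CMM12 at −0.68 (SE 0.16, adjusted p 0.0192), as was ELN, the elastin gene, at −2.89 (SE 0.63, 0.0157). These p-values are edgeR's, adjusted over all genes.

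**Figure D5:**
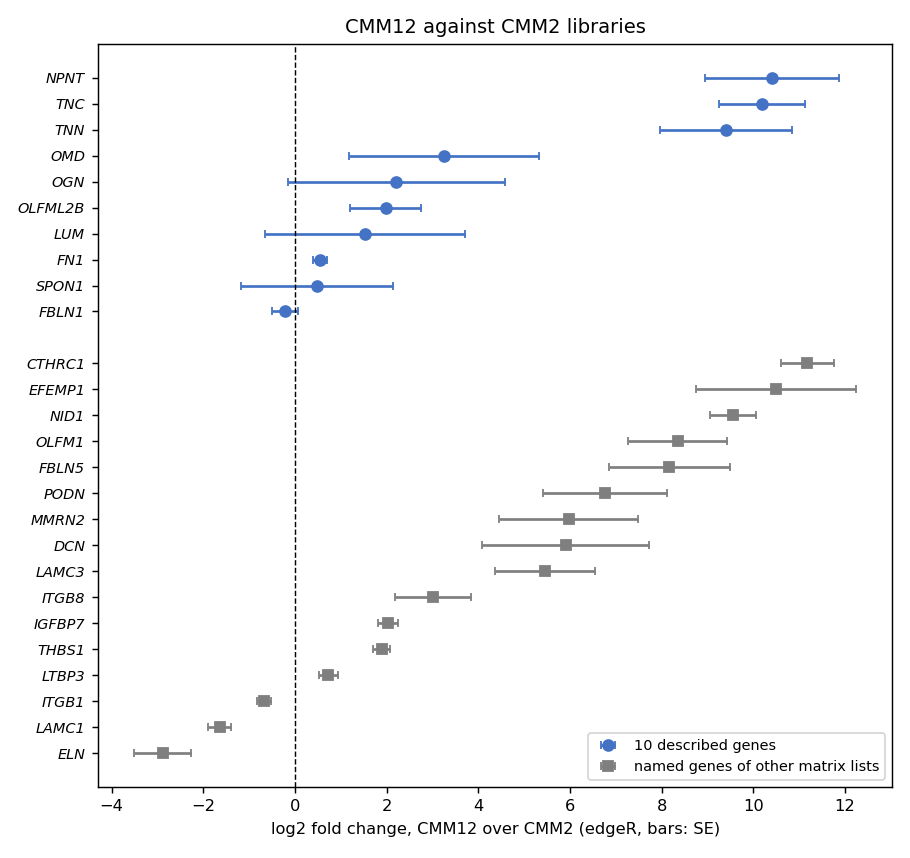
Points give the edgeR log2 fold change of CMM12 over CMM2 with its SE for the 10 genes (blue circles) and for genes of the other matrix lists called between the lines (grey squares). TNC, TNN and NPNT lay at 9.41 to 10.42, and of the genes shown FBLN1, ITGB1, LAMC1 and ELN lay below 0.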

How the data were processed

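Per the labels' protocols, 1 ug of RNeasy-purified total RNA went into each NEBNext Ultra RNA library. The submitters' processing notes list RSEM 1.3.3, STAR 2.7.3a and the dog build CanFam3.1. No source used here gives the strand setting, so overlapping antisense partners may not have been told apart. Near-identical copies may not have been told apart either, whatever that setting was. The authors deposited expected counts per gene without scaling between libraries, and TPM values, per the file headers. Expected counts were rounded to whole numbers (3.22% to 3.63% of the values of a library changed). Genes without a symbol (7.89% to 8.85% of counts) were fitted too.

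The main test was the quasi-likelihood test of edgeR 4.0.16 (R 4.3.3) with TMM factors and filterByExpr, with Benjamini-Hochberg adjustment at 0.05 over 12270 genes. KO across lines and CMM12 against CMM2 came from a model of line and genotype, and KO in each line and the difference from 4 group means, where each lone control is assumed to vary like the KO pairs. SE is the fold change divided by the root of F. DESeq2 1.42.0, limma 3.58.1 on log2(TPM + 1) and log2(TPM + 0.1), other factors and filters, a block of KO number and leaving out each library were the alternatives. For KO in CMM12 DESeq2 gave an adjusted p to 11080 genes, on which its share of genes called there is based. OGN and OMD were not among them. The fit was also run on simulated data with changes larger than those of FN1 and FBLN1. That run does not show whether changes of their size would be called. Counting intervals for ratios are exact (Clopper-Pearson, conditional on the sum). A floor of 3 counts stood for 0, which is 0.259 to 0.293 CPM. No KO pair was 1 library deposited a second time (chi-square divided by its degrees of freedom was 31.8 in CMM12 and 47.5 in CMM2). The members and gene lists were chosen with earlier results of these data known. Genes named from the lists were those called by edgeR, up to 3 per list and comparison, and the 2 with the highest mean TPM. Genes alike in pattern were the 5 with the highest correlation. For FBLN1 1 of them is not reported here. ITGA8, FBN1's DESeq2 call and the neighbours of LUM, OGN and OMD were added after their values were seen. Counts of list genes above the control by library and list medians with zeros at the floor, like the shares on 1 side in both KO libraries, were also chosen after seeing the data.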

Additional observations from a re-analysis of the deposited data

Results flagged for a closer look

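LUM, OLFML2B, OLFML3, FBN1, LTBP1 and SPARC are given here because both KO libraries of CMM12 lay below their control and both KO libraries of CMM2 above theirs. For LUM this rests in CMM2 on 0 counts in the control, 11 in KO 2 and 1 in KO 1, which is under the floor of 3 counts. As the effect in CMM12 minus that in CMM2, the log2 difference was −11.74 (SE 3.08) for LUM, with these few counts, and −3.67 (SE 0.86) for OLFML2B. It was −2.12 (SE 1.62) for OLFML3, −2.50 (SE 0.49) for FBN1, −1.73 (SE 0.74) for LTBP1 and −2.14 (SE 0.94) for SPARC. The edgeR adjusted p of the difference was 1 for all 6. DESeq2 called OLFML2B (adjusted p 0.0118) and FBN1 (0.000438) and not LUM (0.172), LTBP1 (0.844), OLFML3 or SPARC (1 for both). The pattern was found in 10.2% of all tested genes and in 13 of the 73 tested genes of the other matrix lists (17.8%), so it is not particular to these 6. OLFML2A had a larger difference than OLFML2B, at −3.96 (SE 0.88, DESeq2 adjusted p 0.109), and ITGAV, ITGB5, SDC1, AGRN, EMILIN1, CCN6, EDIL3 and CILP also met it. These 9 were named after their values were seen.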

How the results depend on the processing

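FN1 kept a positive KO difference across lines under all 16 alternatives, at 0.65 to 0.90 on the log2 scale, and FBLN1 at 1.21 to 1.88, where DESeq2 alone called them. SPON1 kept its sign in 11 of 16 and OLFML2B in 14 of 16. With 1 or 2 libraries a group, no setting replaces a second control. Main counts of genes called were 0 across lines, 0 in CMM2, 1 in CMM12, 0 for the difference and 3170 between lines. DESeq2 called 9, 6, 45 and 22 in the 4 KO comparisons, with 2 members across lines and 1 in each of the others, and 1 gene of the other lists in CMM12 and 1 for the difference. Without a low-count filter edgeR called 15, 1, 26 and 2, with 2 members across lines (TNN and NPNT) and the same 2 in CMM12. limma on log2(TPM + 1) called 3 genes across lines and 0 in CMM12, and on log2(TPM + 0.1) 2 and 0. Without its filter limma called 75 genes in CMM12, 2 of them members and 1 of the lists. At 1 CPM in 2 libraries edgeR called 0 genes in CMM12. The bias-adjusted fit, added after seeing the data, called 4 genes and 1 member there. Between lines limma called 2 members on log2(TPM + 0.1), 2 on log2(TPM + 1) without its filter (FN1 and TNC in both) and 3 on log2(TPM + 1) (FN1, TNC and OLFML2B). There edgeR without a low-count filter called TNC, TNN, NPNT and OLFML2B, with FN1 at an adjusted p of 0.058, and the bias-adjusted fit called TNC, TNN and NPNT, with FN1 at 0.0529. Leaving out each library gave 0 to 1 genes across lines, 0 to 1 in CMM2, 0 to 14 in CMM12, 0 to 1 for the difference and 1499 to 3096 between lines. It gave 0 to 1 members in CMM12 (NPNT without KO 2) and 1 to 5 between lines, and 0 to 2 and 11 to 26 genes of the lists in the same comparisons. Between lines, members called numbered 1 without the CMM2 control, 3 without CMM2 KO 1, 5 without CMM2 KO 2, 1 without the CMM12 control and 3 without CMM12 KO 1 or KO 2. The causes were not tested.

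KO numbers 1 and 2 recur in both lines, but same-numbered libraries did not deviate together (r = 0.06 across 8659 genes, 2 pairs), so the numbers were not treated as pairs. With 2 pairs this does not show that the lines of a number share nothing, such as a guide. With the KO number as a replicate block edgeR called 1 gene across lines, 8 in CMM12 and 2959 between lines, with 0 members in the KO comparisons and 4 between lines. Of the 16 genes of other lists named between lines, 9 lost their call under at least 1 alternative, ITGB8 and DCN most often (8 and 10 of 16). No member has a second row, so summing rows gave no other value.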
